A study of Saccharomyces cerevisiae with 5 samples.

Results

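The genes described here are the *Saccharomyces cerevisiae* genes whose promoters were most strongly depleted of nucleosomal DNA relative to their own coding regions. They were chosen by a promoter ratio, log2 of the mean promoter signal (from -120 to -20 bp, counted from the listed start) over the mean body signal (from 100 to 500 bp), after 0.1 times the gene's mean signal was added to both. A gene was a member when the mean of this ratio over 5 libraries was below -3.0. Of 5264 host genes per library, 684 lay on chromosomes II and X by their systematic names and were left out. A further 9 had less than 10% of the median signal in some library, which left 4571 genes, and 397 of these (8.69%) were members. Since the ratio chose them, its values and the other measures read from the same libraries are given as descriptions, without tests. The difference between the strain groups, which the choice did not use, is the exception.

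In budding yeast most promoters hold a nucleosome-depleted region just upstream of the transcription start, bounded by a -1 nucleosome upstream and a +1 nucleosome at the start. Stiff poly(dA:dT) runs, general regulatory factors such as Reb1, Abf1, Rap1 and Tbf1, and the remodeller RSC are known to keep such regions open, and remodellers such as ISW1 and CHD1 space the array that runs from the +1 nucleosome into the gene. Micrococcal nuclease digests linker DNA and leaves the DNA wrapped in nucleosomes, so sequencing of mononucleosomal fragments reports where nucleosomes lie.

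The 5 strains each held DNA of another yeast species on an artificial chromosome (YAC), which the host keeps like one of its own. The strains YAC1, YAC2 and YAC3 bore *Kluyveromyces lactis* DNA (n = 3), and YAC6 and YAC7 bore *Debaryomyces hansenii* DNA (n = 2). All were *S. cerevisiae* hosts grown in a medium that the labels name as without tryptophan and uracil but list with yeast extract, peptone and dextrose, so that its exact make-up is unclear, then treated with zymolyase and micrococcal nuclease, and each gave 1 library of gel-purified mononucleosomal DNA. Neither the host genotype nor the nuclease dose is stated in the labels, no strain without a YAC was included, and strain and library cannot be told apart, so every spread below is a spread between strains.

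Depth in reads is unknown. In units of the smallest difference between 2 values of a library (a step), the mean signal per 10 bp bin was 1739 for YAC1, 559 for YAC2, 396 for YAC3, 1479 for YAC6 and 726 for YAC7. The median promoter signal of the members was 59.9, 41.5, 25.5, 54.2 and 41.2 steps in the same order, and 5.38%, 8.68%, 17.9%, 8.93% and 7.03% of their promoter bins were at 0. No counting interval can be given for these values.

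The median member had a ratio of -3.20, against -2.07 for all 4571 genes, and the lowest was -4.21. By library the median of the members was -3.43 for YAC1, -3.02 for YAC2, -3.17 for YAC3, -3.28 for YAC6 and -3.24 for YAC7. The other genes had medians of -2.28, -1.75, -1.72, -2.28 and -1.88 in that order. YAC1 and YAC6 were thus the lowest libraries for both sets, and YAC2 was the highest for the members. A member's ratio had a median SD of 0.29 over the 5 libraries, and that of another gene 0.38. The constant added to both terms narrows the spread of low ratios, so the members are not called steadier.

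Most members were not below -3.0 in every library. The number below it was 390 for YAC1, 209 for YAC2, 264 for YAC3, 329 for YAC6 and 322 for YAC7, where 20.3%, 5.8%, 9.67%, 20.5% and 9.74% of all genes were below it. Of the members, 106 were below -3.0 in all 5 libraries, 140 in exactly 4, 122 in 3 and 29 in 2, while 395 were below -2.0 in every library. YAC1 gave the lowest of the 5 values for 163 members and YAC2 the highest for 163.

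**Figure D1:**
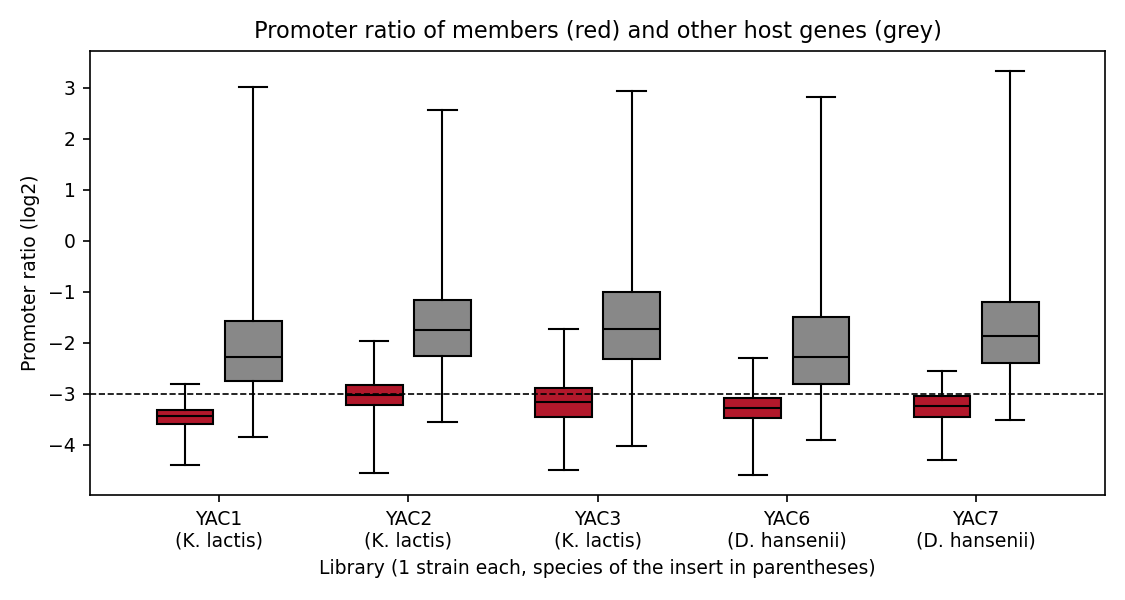
Promoter ratio (log2, vertical axis) of the 397 members (red) and the 4174 other host genes (grey) in each of the 5 libraries (horizontal axis, with the species of the insert). Boxes span the quartiles around the median, whiskers reach the lowest and highest gene, and the dashed line is at -3.0; the red boxes lie below the grey ones in every library, with medians from -3.43 to -3.02, while the whiskers overlap.

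A library that had no part in the choice gives the same measure without selection in it. When the members were chosen again on 4 libraries, 97.5% of 326 genes were below -3.0 in the remaining YAC1 and 76.2% of 386 for YAC6. The share was 70.7% of 410 genes in YAC7, 51.2% of 463 for YAC3 and 42.0% of 486 for YAC2. The mean over the 5 left-out libraries was 67.5% ± 21.8 (SD, n = 5), against 13.2% ± 6.76 for all genes in the same libraries. All of the 326 genes chosen without YAC1 and all of the 410 chosen without YAC7 were below the left-out library's host median, as were 482 of 486 for YAC2, 448 of 463 for YAC3 and 376 of 386 for YAC6.

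Both terms of the ratio set the members apart. The promoter signal of the median member was 0.0607 of its gene's mean, against 0.220 for the other genes. The signal from 100 to 500 bp was 1.39 of the gene's mean, against 1.11, and it exceeded the gene's mean in 393 members (99.0%) and in 2838 other genes (68.0%). An empty promoter alone therefore did not make a member: 106 other genes (2.54%) had a promoter at or under the level of the median member, with a median body signal of 0.924 of the gene's mean. The added 0.1 also bounds the ratio, since an empty promoter above a body at the gene's mean gives -3.46, and only 53 members were below that value. Values were continuous across the threshold: VPS33, NUP1 and IST1 were just inside and TAF9, PKR1 and GID7 just outside, all at -3.0 to 2 digits.

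The depleted region was measured on the smoothed profile as the stretch around the lowest point in which the signal stayed below 0.5 of the mean from 100 to 500 bp. Its median width in the members was 268 bp for YAC1, 252 bp for YAC2, 335 bp for YAC3, 209 bp for YAC6 and 306 bp for YAC7. In the other genes it was 160, 147, 163, 146 and 153 bp. The members were wider in every library, but their medians were also further apart, with a mean of 274 ± 48.6 bp (SD, n = 5) against 154 ± 7.30 bp. The 402 genes within 0.25 above the threshold lay between them at 214 ± 25.2 bp. The edge level rests on the signal from 100 to 500 bp, and the measured stretch surrounds the lowest point of the promoter. Both regions entered the ratio, so part of the members' extra width follows from how they were chosen.

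The extra width was mostly upstream. Averaged over libraries, the median left edge was at -225 bp in the members and -144 bp in the other genes, whereas the right edge was at 27.3 and 4.91 bp. The lowest point lay at -80 bp in the members, where the signal was 0.0197 of the body level, and at -66 bp in the other genes, where it was 0.103. The nearest upstream summit was at -258 bp in the members and -212 bp in the other genes, the nearest downstream one at 87.9 and 81.0 bp, and the distance between the flanking summits was 371 and 295 bp. These upstream positions and distances are medians over the genes with a summit there: in 30 (YAC6) to 82 (YAC7) of the 397 members, and in 365 to 496 of the 4174 other genes, none was found.

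The members ranged from regions of about the usual width to very wide ones. The width averaged over libraries was under 200 bp in 73 members (18.4%, against 64.4% of the other genes), from 200 to 350 bp in 199 (50.1%, against 26.3%) and 350 bp or more in 125 (31.5%, against 8.41%). In 28 members (7.05%, against 0.982%) it reached 500 bp. The limits of these classes were set after the values were seen. In 92 members (23.2%, against 8.39%) the region ran to the end of the table at -500 bp in some library, so that its width there is a lower bound.

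The median ratio was -3.13 in the members under 200 bp and -3.17 in those from 200 to 350 bp. In those of 350 bp or more it was -3.29. Membership required a ratio below the threshold, and the constant added to both terms limits how low it can fall. The classes could therefore differ little in ratio, and no relation between depth and width is drawn from these medians. The distance between the flanking summits was 309.0, 383 and 475 bp in the same order of classes. The right edge lay more than 60 bp past the listed start in 109 members (27.5%, against 11.4%) and more than 100 bp past it in 58 (14.6%, against 5.22%). The left edge lay before -300 bp in 124 (31.2%, against 11.7%), and 42 members (10.6%, against 1.96%) had both a left edge before -300 bp and a right edge past 60 bp. Whether the listed start of such genes lies at the site used by these cells was not tested.

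**Figure D2:**
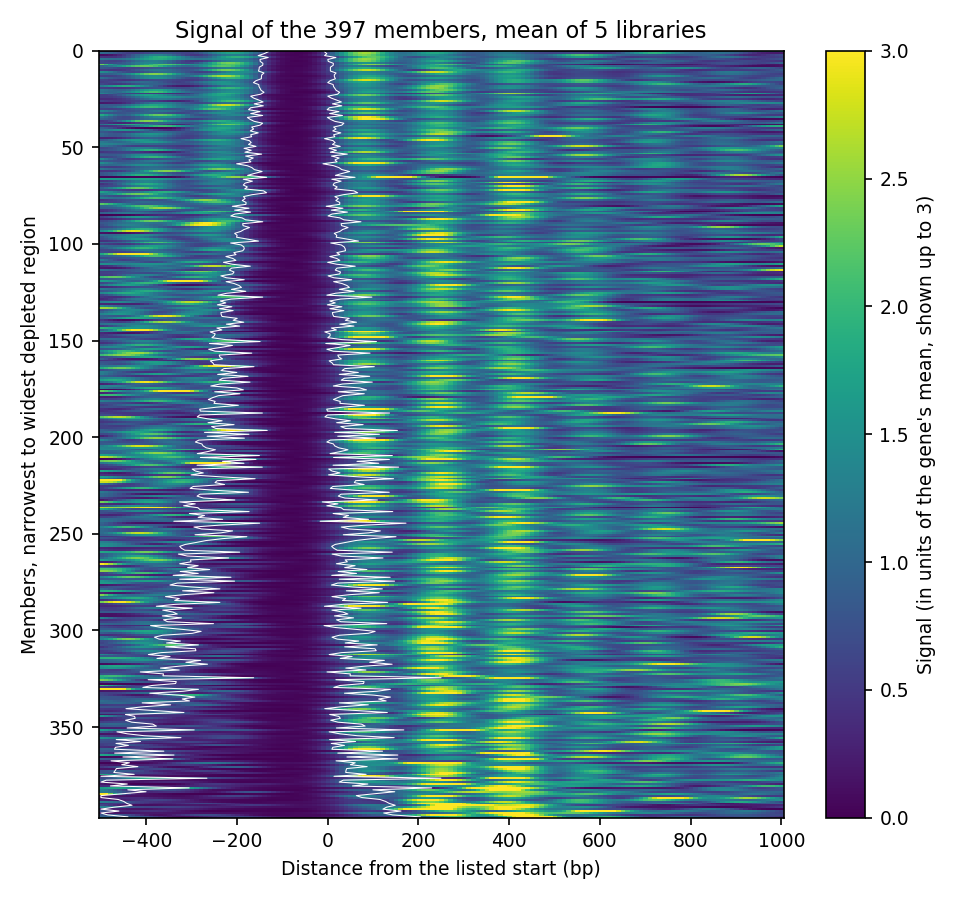
Signal of each of the 397 members (rows, sorted from the narrowest to the widest depleted region) by distance from the listed start (bp, horizontal axis), in units of the gene's mean signal and averaged over 5 libraries; values above 3 are shown as 3. White lines mark the mean left and right edges; the left edge moves from near -150 bp to the table's end at -500 bp down the rows while the right edge stays mostly within 100 bp of the start.

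The narrowest regions belonged to RSM18 (124 bp), a protein of the small mitochondrial ribosomal subunit, CWC27 (138 bp), a spliceosome-associated protein, and ERB1 (146 bp), which matures the large ribosomal subunit. CWC27 gave 137, 141.5, 144, 135 and 133 bp for YAC1, YAC2, YAC3, YAC6 and YAC7 with ratios of -3.32, -3.06, -2.84, -3.17 and -3.36, so the region was narrow in each strain and its ratio was above the threshold in YAC3 alone. Within the table's limit of -500 bp, the widest belonged to SMC2 (645 bp), a condensin subunit, TIF4631 (628 bp), the translation initiation factor eIF4G1, and FKS1 (623 bp), the catalytic subunit of the cell wall glucan synthase. The left edge of FKS1 was at the limit in all 5 libraries and that of TIF4631 at -485 ± 33.7 bp, so these widths are lower bounds and the order is not known, while that of SMC2 was at -441 ± 44.7 bp. For SMC2 the widths were 624, 677, 591, 625 and 707 bp in the same order, and its ratio in YAC6, -2.30, stood above the other 4 values of -3.28, -3.67, -3.79 and -3.64.

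Downstream of the depleted region, the members carried a regular array. In the mean profile of each library, with every gene scaled to its own mean, the +1 summit of the members lay at 84.5 bp for YAC1, 86.8 for YAC2, 90.4 for YAC3, 81.3 for YAC6 and 83.5 for YAC7. In the other genes it lay at 81.0, 80.2, 81.1, 78.4 and 79.0 bp. The members' summit was further from the start in every library, with a mean of 85.3 ± 3.46 bp against 79.9 ± 1.21 bp.

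The spacing was taken as the slope of a line through 4 successive summits. For the members it was 161.4 bp for YAC1, 160.7 for YAC2, 158.4 for YAC3, 161.6 for YAC6 and 161.7 for YAC7, a mean of 160.7 ± 1.35 bp. For the other genes it was 164.3, 164.2, 163.4, 163.9 and 164.9 bp, a mean of 164.1 ± 0.551 bp. The members' spacing was thus the shorter in every library. The 402 genes within 0.25 above the threshold lay between the members and the other genes at 161.7 ± 1.06 bp. The middle summits nearly coincided, at 244.7 and 407.8 bp in the members against 244.9 and 409.1 bp. The outer ones differed more, at 85.3 and 566.7 bp against 79.9 and 572.3 bp. The window from 100 to 500 bp, which was used to choose the members, holds the middle summits. Whether the choice set the difference in spacing was not tested.

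The array's amplitude, the log2 of summit over trough height averaged over the first peaks, was 0.85, 0.62, 0.65, 0.90 and 0.77 for the members against 0.75, 0.54, 0.57, 0.78 and 0.67 for the other genes. It followed the library more than the gene set, being lowest in YAC2 and YAC3. The 402 genes just above the threshold had 0.85, 0.61, 0.63, 0.89 and 0.76, close to the members in each library.

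Peak heights differed in order. In the members the +1 peak was lower than the next one in every library, with ratios of first to second height of 0.718, 0.753, 0.615, 0.898 and 0.677, whereas in the other genes the ratios were 1.04, 1.05, 0.994, 1.09 and 1.05. The 402 genes within 0.25 above the threshold had 0.854, 0.855, 0.777, 0.999 and 0.824, so this order was not particular to the members. The height of the +1 peak itself was 1.44 ± 0.126 times the gene's mean in the members and 1.48 ± 0.0846 in the other genes. The second peak was at 1.98 ± 0.128 against 1.42 ± 0.0495. The second peak and the one after it lie inside the window whose signal is the lower term of the ratio, so their height was part of what chose the members.

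The upstream flank is given by width class, and since the classes were cut by where the signal stays low, its level there follows in part from how they were made. Between -240 and -180 bp, where the -1 nucleosome of a narrow promoter lies, the mean signal was 1.42 ± 0.0451 times the gene's mean in the members under 200 bp, 0.769 ± 0.0726 in those from 200 to 350 bp and 0.329 ± 0.0369 in those of 350 bp or more. The ratio of first to second peak was 1.01 ± 0.0807, 0.771 ± 0.101 and 0.555 ± 0.123 in the same order. The members with narrow regions thus had a signal above the gene's mean on both sides, and in the widest class the +1 peak was also the lowest of the 3 classes, at 1.23 ± 0.179 times the gene's mean. The +1 position of the 3 classes was 84.1 ± 2.99, 85.3 ± 3.38 and 86.6 ± 4.41 bp, and the spacing 160.3 ± 1.82, 160.8 ± 1.14 and 160.7 ± 1.53 bp, which overlapped over libraries.

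**Figure D3:**
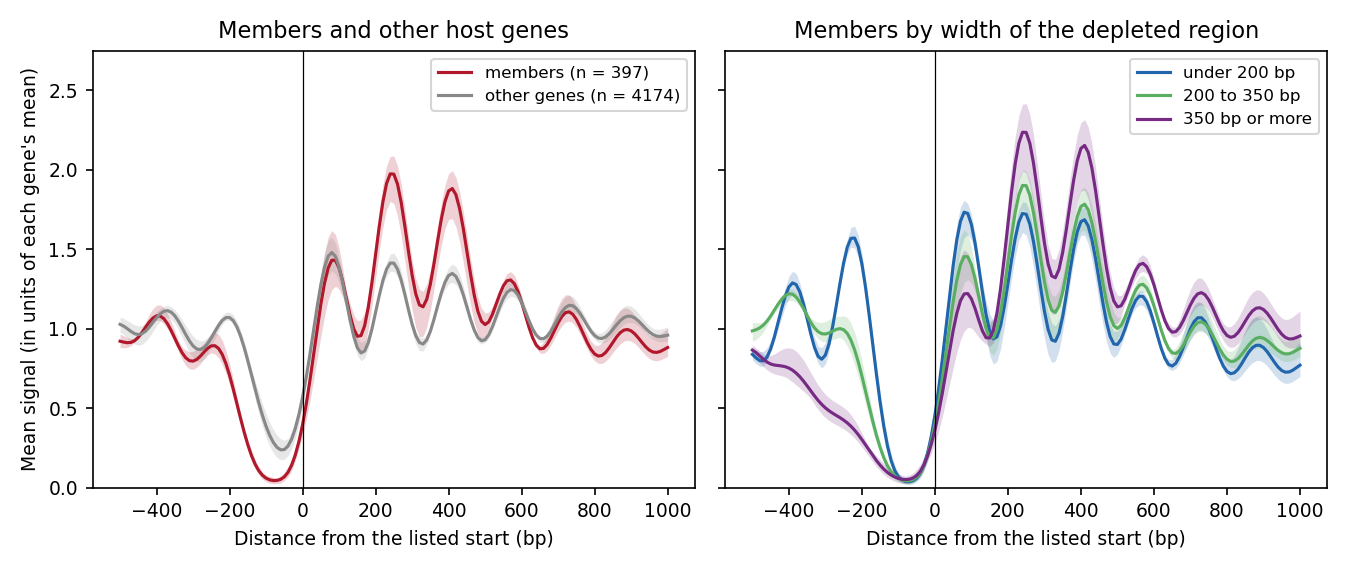
Mean signal in units of each gene's mean (vertical axis) by distance from the listed start (bp, horizontal axis). Left, the 397 members (red) and 4174 other genes (grey); right, the members by width of the depleted region, under 200 bp, 200 to 350 bp and 350 bp or more; lines are means of 5 libraries and shading runs from the lowest to the highest library. The members' second peak stands at 1.98 against 1.42 in the other genes, and the peak upstream of the depleted region is absent from the mean of the widest class.

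The lowest ratio of all belonged to VMA3, the proteolipid subunit of the vacuolar proton-pumping ATPase, at -4.21 ± 0.21 (SD, n = 5). Its values were -4.40 for YAC1, -4.02 for YAC2, -4.38 for YAC3, -3.96 for YAC6 and -4.30 for YAC7, all far below the threshold. The region ran from the end of the table at -500 bp to 122 ± 2.87 bp past the start in every library, a width of at least 622 bp, and the first summit stood at 221 ± 3.88 bp. FRT2, a tail-anchored protein of the endoplasmic reticulum, followed at -4.02 ± 0.23, with -4.19, -3.67, -4.18, -3.90 and -4.18, the YAC2 value being the highest.

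TIF4631 had -3.96 ± 0.51, with -4.23, -4.55, -3.18, -3.94 and -3.90, so that YAC3 stood apart from the rest. SNU13, a shared protein of the U3 snoRNP and the spliceosome, had -3.97, -3.87, -3.93, -3.60 and -4.08, a mean of -3.89 ± 0.18. Its width varied widely, with 298, 547, 402, 270 and 662 bp in the same order of libraries. EGD2, a subunit of the nascent polypeptide-associated complex, had -4.14, -3.84, -3.29, -3.70 and -4.12, with widths from 307 to 361 bp.

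Next among the 12 lowest were YDR524W-C at -3.83, LDS1 (which acts in spore wall assembly) at -3.82 and TIP20 (a tether for vesicles returning to the endoplasmic reticulum) at -3.81. The rest were SMD1 (a core splicing protein) at -3.80, VTI1 (a SNARE of vesicle fusion) at -3.80, MRPL19 (a mitochondrial ribosomal protein) at -3.79 and SKG6 at -3.79. These 12 genes do not belong to one pathway: they serve the vacuole, the endoplasmic reticulum, splicing, translation and sporulation.

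Some members varied widely between strains. SSA1, a cytosolic Hsp70 chaperone, had the largest SD, 0.85, with -4.05 for YAC1, -2.77 for YAC2, -2.71 for YAC3, -4.60 for YAC6 and -3.05 for YAC7. PPN1, a polyphosphatase, had -3.70, -3.22, -1.72, -3.74 and -3.23 (SD 0.82), its membership resting on the 4 libraries other than YAC3. NCE102, a membrane protein of eisosomes, had -3.91, -3.33, -4.49, -2.53 and -4.17 (SD 0.77), with YAC6 the highest. In each of these genes the strains with *K. lactis* and with *D. hansenii* inserts overlapped. SSA1 has a near-identical copy, SSA2, so its values are uncertain.

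By function, the members were spread over many processes. Of 23 gene lists that hold 987 of the 4571 genes, 20 had a member, and 119 members (29.97%) were on a list while 278 (70.03%) were on none. Among listed genes 12.1% were members, among unlisted ones 7.76%. The shares below are to be read against the 8.69% of all genes, are not tested and come with small list sizes. With the threshold 0.25 higher (17.5% of all genes) and 0.25 lower (3.65%), 9 lists were above the share of all genes at all 3 thresholds: nuclear pore, vacuolar ATPase, general regulatory factor, glycolysis, chaperone, proteasome, ribosome biogenesis, translation factor and RNA polymerase. Below it at all 3 were 7 lists, namely cytosolic ribosomal protein, respiratory chain, mitochondrial import, meiosis, histone, sugar transport, and PAU and COS. The other 7 crossed it, so that for them the side depends on the threshold. The sets at the 3 thresholds are nested, and some margins were small. With the threshold 0.25 lower, RNA polymerase stood at 4% and mitochondrial import at 3.57%, against 3.65%. Meiosis stood at 7.69% against 8.69% at the main threshold.

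**Figure D4:**
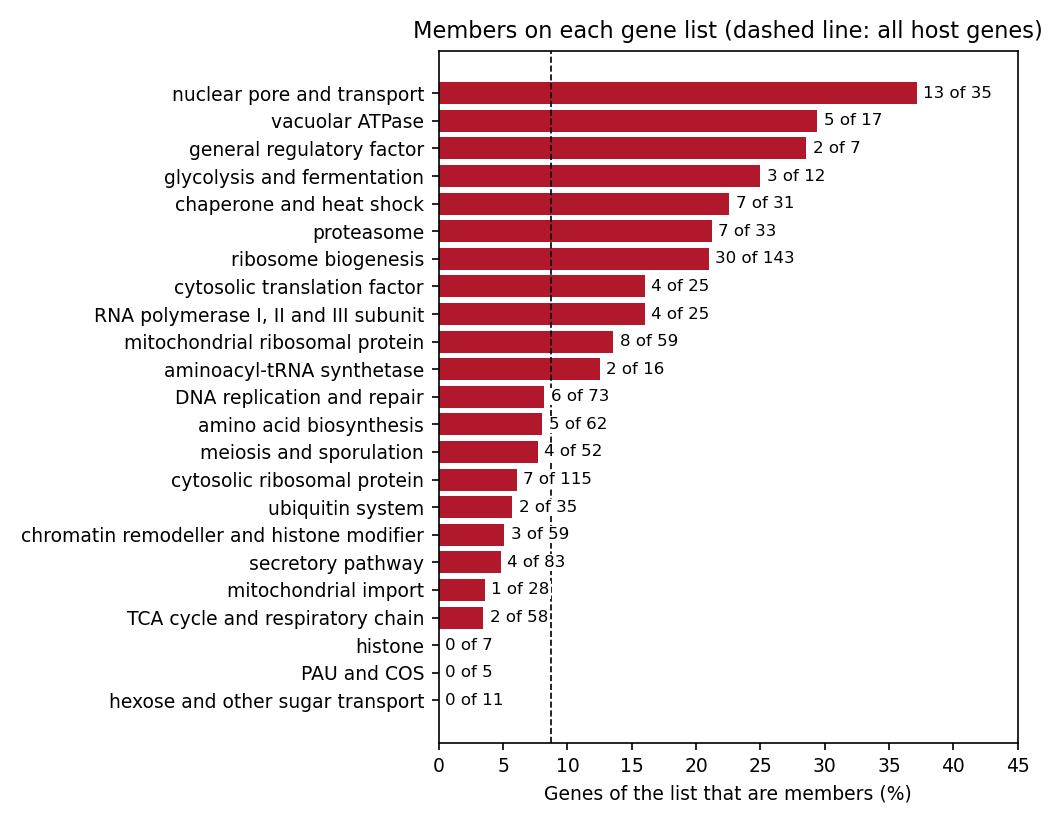
Share of each gene list that were members (percent, horizontal axis, starting at 0), with the number of members and of genes past the filter beside each bar; the dashed line is the 8.69% of all 4571 genes. Nuclear pore and transport genes lead with 13 of 35, and the histone, PAU and COS, and sugar transport lists hold none.

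Genes of the nuclear pore and of transport through it had the highest share, 13 of 35 (37.1%), and the list's median ratio was -2.90. They came from most layers of the machinery. POM34, a membrane nucleoporin that helps anchor the pore, had -3.70 for YAC1, -3.19 for YAC2, -3.60 for YAC3, -3.66 for YAC6 and -3.33 for YAC7, below -3.0 in each. The other structural members were NUP120 of the outer ring at -3.32, NUP157 and NUP53 of the inner ring at -3.19 and -3.02, the FG nucleoporins NUP116 and NUP57 at -3.28 and -3.15, and NUP60 and NUP1 of the nuclear basket at -3.13 and -3.0.

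The soluble transport machinery was represented as well. KAP123, an importin for ribosomal proteins, had -3.65, -3.02, -3.254, -3.65 and -3.29, and GSP1, the yeast Ran GTPase, had -3.53, -3.24, -3.31, -3.52 and -3.09, all below the threshold. KAP95, the importin beta, stood at -3.22, PSE1, another importin, at -3.08, and RNA1, the GTPase-activating protein for Ran, at -3.05. NUP1 was the least even, with -3.64, -1.96, -2.44, -3.68 and -3.27, so that 2 of its 5 libraries were above the threshold. Widths in this list ran from 149 bp at RNA1 to 474 bp at GSP1.

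**Figure D5:**
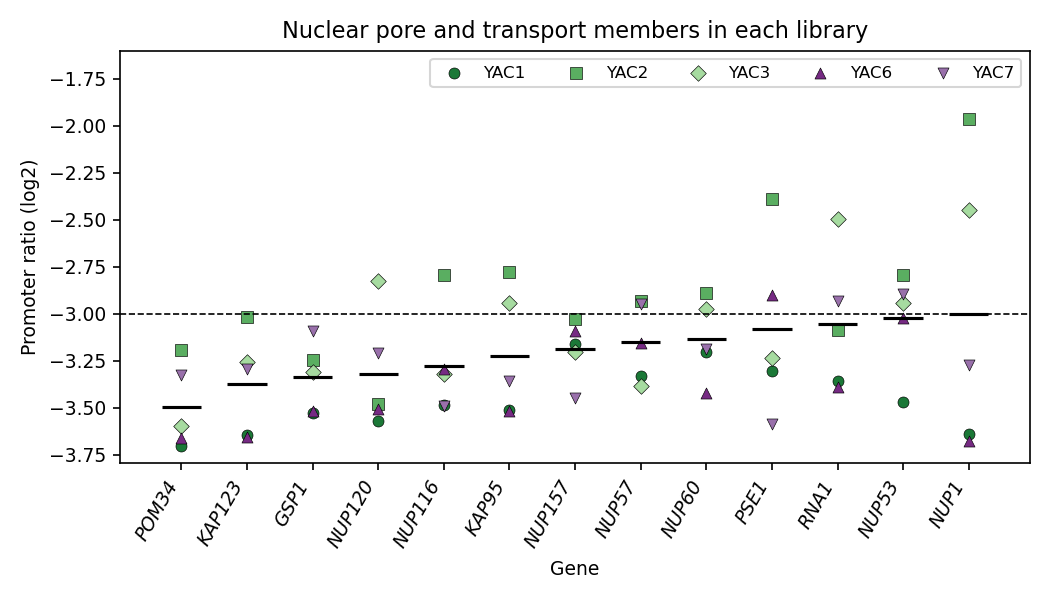
Promoter ratio (log2, vertical axis) of the 13 nuclear pore and transport members (horizontal axis) in each library; circles, squares and diamonds are YAC1, YAC2 and YAC3 (*K. lactis* inserts), triangles YAC6 and YAC7 (*D. hansenii* inserts), black bars the mean and the dashed line -3.0. The means run from -3.50 (POM34) to -3.0 (NUP1), and YAC2 gives the highest value for several genes, up to -1.96 at NUP1.

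Genes that make ribosomes contributed the most members, 30 of 143 (20.98%), with a list median of -2.60. After SNU13 the lowest was MAK16, needed for the large subunit, at -3.70 ± 0.25, followed by RRP4 of the RNA exosome at -3.64 and PNO1 of the small subunit precursor at -3.56. NOP1 (fibrillarin, the box C/D methylase) at -3.51, CBF5 (the box H/ACA pseudouridine synthase) at -3.35 and its partner GAR1 at -3.13 were members too. Their widths ran from 146 bp at ERB1 to 436 bp at SNU13.

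The structural proteins of the cytosolic ribosome behaved otherwise: 7 of 115 (6.09%) were members. The list's median ratio was -1.52, above the -2.07 of all genes, although its median width was 238 bp, against 171 bp for ribosome biogenesis. A high ratio thus did not mean a narrow region here. The lowest were RPS31, made as a fusion with ubiquitin, at -3.50 ± 0.33 with a width of 431 bp, and RPS21A at -3.37 ± 0.26. The stalk proteins RPP1A and RPP2B at -3.3 and -3.2 and the 40S-bound ASC1 at -3.09 were also members. Many ribosomal proteins have a near-identical copy, and how reads shared by copies were placed is not stated in the labels. RPS21A, RPL9B (-3.14) and RPL8B (-3.10) are therefore uncertain, as are the list's share and median.

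RNA polymerase subunits gave 4 members of 25 (16%). RPA190, the largest subunit of RNA polymerase I, had -3.64, -3.77, -3.67, -3.80 and -3.61, one of the most even genes (SD 0.08). The added 0.1 narrows the spread of ratios this low. The other members, RET1 at -3.11, RPC82 at -3.06 and RPC37 at -3.02, are subunits of RNA polymerase III. Translation factors gave 4 of 25 (16%), with the cap-binding CDC33 at -3.26 after TIF4631, and aminoacyl-tRNA synthetases 2 of 16 (12.5%), CDC60 for leucine at -3.18 and TYS1 for tyrosine at -3.03.

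Among protein-folding genes 7 of 31 (22.6%) were members. ZUO1, the J protein of the ribosome-associated complex, was the lowest at -3.53 ± 0.26, followed by SSA1. The chaperonin subunits CCT2 and TCP1 had -3.39 and -3.09. SSB1 and SSB2, the Hsp70 proteins that act at the ribosome, had -3.36 and -3.31. Picked out after its value was seen, SSZ1, the partner of ZUO1, had -3.13, -3.26, -3.17, -2.92 and -2.81, a mean of -3.06 ± 0.19, although it is on no list here.

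Of the proteasome genes 7 of 33 (21.2%) were members. All but RPN2 (-3.16), a subunit of the regulatory particle, encode the 20S core, with PRE8 at -3.48 ± 0.26, PRE4 at -3.45 ± 0.14 and PUP2 at -3.44 ± 0.29 the lowest. The vacuolar ATPase gave 5 of 17 (29.4%). VMA1, the catalytic subunit of its peripheral sector, had -3.33 ± 0.36, and VMA16 (-3.12), VMA11 (-3.06) and VMA6 (-3.02) belong with VMA3 to the membrane sector.

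In metabolism, glycolysis and fermentation gave 3 members of 12 (25%): PFK2, a phosphofructokinase subunit, at -3.32 ± 0.14, PYK2, the minor pyruvate kinase, at -3.31 ± 0.36 and TDH3, the main glyceraldehyde-3-phosphate dehydrogenase, at -3.01, which is uncertain because TDH2 is a near-identical copy. The median ratio of the glycolysis list was -1.97, above the -2.07 of all genes. Of its 12 genes, 6 were below the host median. Amino acid synthesis gave 5 of 62 (8.06%). The lowest, HIS3, for histidine, had -3.85, -3.67, -3.74, -3.52 and -3.59, a mean of -3.67 ± 0.13, and ILV1, for isoleucine, had -3.252 ± 0.25.

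Mitochondrial ribosomal proteins gave 8 of 59 (13.6%), with MRPL15 at -3.16 ± 0.24 after MRPL19. With the threshold 0.25 lower the share was 1.69%, under that of all genes. Respiratory chain and citric acid cycle genes gave 2 of 58 (3.45%), the ATP synthase subunit ATP15 at -3.13 and COX19, for cytochrome oxidase assembly, at -3.06. Mitochondrial import gave 1 of 28 (3.57%): PAM17, of the presequence motor, had -3.67, -3.84, -3.88, -3.72 and -3.78, a mean of -3.78 ± 0.08.

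Other genes of the nucleus gave both low and high shares. DNA replication and repair gave 6 of 73 (8.22%), led by RNR1, the large subunit of ribonucleotide reductase, at -3.40 ± 0.30 and DBF4, the activator of the Cdc7 kinase, at -3.33 ± 0.54. Chromatin genes gave 3 of 59 (5.08%): SWR1, which deposits the histone variant H2A.Z, at -3.33 ± 0.20, the deacetylase RPD3 at -3.31 ± 0.11 and HIR2, a repressor of histone genes, at -3.13. With the threshold 0.25 higher the replication and chromatin shares, 20.5% and 22.03%, were above the 17.5% of all genes. Of 7 general regulatory factor genes, TBF1 at -3.40 ± 0.47 and MCM1 at -3.07 ± 0.44 were members (28.6%), and the list's median was -2.76.

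Secretory genes gave 4 of 83 (4.82%), with ERV14, a cargo receptor, at -3.43 ± 0.71 and the Rab protein YPT1 at -3.41 ± 0.34. Ubiquitin genes gave 2 of 35 (5.71%), the proteases UBP16 at -3.44 ± 0.08 and UBP11 at -3.27 ± 0.67. With the threshold 0.25 higher the shares were 24.1% for secretory and 34.3% for ubiquitin genes, above the 17.5% of all genes. Genes of meiosis and sporulation gave 4 of 52 (7.69%), led by SPO11, which makes the meiotic double-strand breaks, at -3.45 ± 0.44 and SPO12 at -3.17 ± 0.38. None of 7 histone, 11 sugar transport and 5 PAU and COS genes was a member, and the medians of these lists were -1.05, -1.66 and -0.42.

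The unlisted members hold genes of chromosome segregation, picked out here after their values were seen and without a share to set beside them. NDC80, of the outer kinetochore, had -3.79, -3.67, -3.90, -3.48 and -3.99, below -3.0 in each strain. MPS1, a kinase of spindle pole duplication and the spindle checkpoint, had -3.73, -2.46, -4.25, -3.29 and -3.43, with YAC2 above the threshold. TUB2, the beta-tubulin gene, had -3.36, -3.10, -2.80, -3.17 and -3.38, with YAC3 above it.

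The members came from every chromosome included, with shares from 6.34% of the genes on chromosome VII to 15.6% on chromosome I. In the gene order of *S. cerevisiae* assembly R64, 220 members (55.4%) had an upstream neighbour on the opposite strand, a divergent arrangement in which both genes face away from a shared intergenic region, against 51.7% of all genes. The median width was 282 bp in the divergent members and 294 bp in those with an upstream neighbour on the same strand, which lie close together.

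The divergent partners of members were themselves low. Of 198 partners past the filter, 60 were members (30.3%) and 153 were below the host median (77.3%), whereas of the partners of all genes 9.17% were members and 49.6% were below the median. The median ratio of the members' partners was -2.64, against -2.06. Since the windows of a divergent pair can cover the same DNA, the values within a pair are not independent.

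In 30 divergent pairs both genes were members. The lowest was ASG1, a putative transcription regulator, with FKH1, a forkhead factor of the cell cycle: ASG1 had -3.67, -3.81, -3.66, -3.61 and -3.50, and FKH1 had -3.83, -3.53, -3.46, -3.31 and -3.65. Every value of the pair was below -3.0, and the widths were 423 ± 67.4 and 511 ± 109 bp. Next came RQC1, of the ribosome quality control complex, at -3.77 with SWR1 at -3.33. NIP7, of ribosome assembly, at -3.53 was paired with PUS1, a pseudouridine synthase, at -3.48. MRM1, a methylase of mitochondrial rRNA, at -3.27 was paired with HIS3, with widths of 207 and 220 bp.

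The design sets strains with *K. lactis* DNA against strains with *D. hansenii* DNA, and for host genes this asks whether the foreign insert came with a difference at the host's own promoters. No gene was called. limma found 0 of 5252 genes (0%) at an adjusted p (Benjamini-Hochberg) under 0.05, and 7 genes (0.133%) at an unadjusted p under 0.05, of which 1 was a member. With 3 strains against 2, this does not show that the groups were alike. The model also held no term for the lower ratios of YAC1 and YAC6, which lie in different groups. Their host medians were -2.37 and -2.41, against -1.84 for YAC2 and YAC3 and -1.98 for YAC7. The median difference, *K. lactis* minus *D. hansenii* strains, was 0.10 over all genes and 0.04 over the members, 161 of 397 members being lower in the *K. lactis* strains. When each library was centred on its median host gene, the members' median became -0.11 and 287 were lower, so no direction is drawn.

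The member with the smallest p was YAR068W, with -3.86 in the *K. lactis* and -2.94 in the *D. hansenii* strains, a difference of -0.91 ± 0.28 (SE; limma, unadjusted p = 0.0106, adjusted p = 0.9999). In YAC2, however, 57 of its 151 bins were at 0. SUA5, which makes a modified tRNA base, differed by -0.56 ± 0.28. FKS1 was higher by 0.60 ± 0.28 and VHS3, a regulator of a protein phosphatase, by 0.70 ± 0.37 in the *K. lactis* strains, all 3 with an adjusted p of 0.9999 in limma. Without YAC7, 405 genes had an unadjusted p under 0.05, and without YAC1 184, with no gene called in either case; without YAC7 the single *D. hansenii* library is assumed to vary like the *K. lactis* ones.

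A few members had stretches with no signal, and their values rest on less data. Over 20 of 151 bins were at 0 in some library at YAR068W, SSB1, SSB2, YDL007C-A, YDR524W-C, ERV14 and DIS3. At SSB2 the empty stretch of YAC2, 36 bins, began 630 bp past the start, outside both windows of the ratio. In other genes empty bins fell in the promoter window. At YDR524W-C in YAC3 the promoter signal was 0 and the ratio -4.34. At DIS3 in YAC6 24 empty bins ran from -290 to -60 bp, and at YDL007C-A in YAC2 26 ran from -340 to -90 bp. ERV14 had empty upstream bins in every library, 24 of them in YAC3 between -480 and -30 bp. SSB1 and SSB2 are near-identical copies, which makes their values uncertain. Without these 7 genes there were 390 members.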

How the data were processed

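Nucleosomal DNA was sequenced from 5 strains. Per the file headers, the tables that the authors deposited hold 1 signal value (nucleosome coverage) per 10 bp for each gene, at 151 positions between -500 and 1000 bp of its start. The submitters' processing notes name CASAVA 1.7.0. Not given in the sources used here are the aligner, the genome build, any read extension and where the starts come from. A name's suffix letter was moved back from the strand column for 214 genes. Symbols and gene order came from a table of assembly R64, in which 5261 of 5264 genes had an entry, and 19 members have only a systematic name.

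Ratios used the signal as deposited. Profiles were smoothed with a Gaussian of SD 20 bp. Depleted regions ended where the signal passed 0.5 of the mean from 100 to 500 bp. The +1 summit was sought between 0 and 150 bp in the mean profile, and later summits 120 to 230 bp after the one before, up to 4; amplitude used the first 3. Strain groups were compared with limma 3.58.1 (R 4.3.3, mean trend, 3 against 2 strains) on the ratios of 5252 genes, chromosomes II and X included. The computations used Python 3.11.15 with numpy 2.4.6, scipy 1.17.1 and pandas 2.3.3 and were tested on simulated data.

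Members and lists were chosen with earlier results of these data known, and list entries that had matched by name only were corrected after values were seen. Named genes are the 12 lowest, the 2 lowest per list, the 3 on either side of the threshold, the 3 widest, 3 narrowest and 3 most variable, the 2 per direction by limma p and the 4 lowest pairs; others on a list are named as examples. The alternatives were other pseudocounts, windows, filters, thresholds, smoothing, edge levels, scalings and left-out libraries. Insert genes were not used here.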

Additional observations from a re-analysis of the deposited data

How the results depend on the processing

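The number of members depended on where the limit and the pseudocount stood. Instead of 397, there were 1032 with a pseudocount of 0.05, 17 with 0.2, 120 with a promoter window from -150 to 0 bp, 799 with the threshold 0.25 higher, 167 with it 0.25 lower and 106 when every library had to be below -3.0. The pseudocount moves the lowest value the ratio can reach. When the same number of lowest genes was taken instead (chosen after seeing the data), 364 of the 397 members were shared at 0.05 and 356 at 0.2. A body window to 800 bp gave 331 members, 263 of them shared, no filter 398 and a filter at 25% 396, and leaving out 1 library gave 326 to 486. The median width became 198 bp with the edge at 0.3 of the body level (other genes 112) and 391 bp at 0.75 (other genes 216), and 259 to 290.4 bp without 1 library. Amplitude became 0.97 with a smoothing SD of 10 bp (other genes 0.84) and 0.52 with 30 bp (other genes 0.46), and 0.72 to 0.79 without 1 library. Without 1 library the +1 summit stayed from 84.01 to 86.3 bp and the spacing from 160.5 to 161.3 bp. With the threshold 0.25 higher and 0.25 lower, 29.7% and 30.5% of members were on a list and 51.4% and 54.5% had a divergent neighbour. Single lists moved more: 7 of 23 changed sides against the share of all genes (17.5%, 8.69% and 3.65% from the higher to the lower threshold), such as the ubiquitin (34.3%, 5.71% and 5.71%), secretory (24.1%, 4.82% and 2.41%) and mitochondrial ribosomal lists (27.1%, 13.6% and 1.69%). limma called 0 genes in each of its 10 alternatives, which in groups this small says nothing about stability, and without YAC6 or YAC7 the lone library is assumed to vary like the other group. Of 621 values of 69 named genes under 9 alternatives, 453 moved by less than their SD over libraries and 168 by more, and 56 of the 69 genes stayed below -2.5 in every alternative. Shares of sequence motifs in promoters were not run, since no promoter sequences were used here. No paired analysis was possible because the strains' numbers name them and pair no samples across groups. The members' median promoter signal was lowest in steps in YAC3, at 25.5, and 17.9% of their promoter bins were at 0 there. Whether read depth set this was not tested.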
